A study of Mus musculus with 8 samples.

Results

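Neuro-mesodermal progenitors (NMPs) were the 971 cells, of 28723 in all, that carried the label NMP in the combined cell type annotation of Eomes-KO chimeric mouse embryos. They made up 3.38% of all cells, with 342 NMPs among Eomes-KO cells and 629 among WT host cells. Every cell with this label also had NMP as its label in the original gastrulation atlas annotation. The choice was made by label and did not use genotype. That label is the commonest among a cell's 15 nearest atlas cells. Label scores, finer labels and atlas stages come from the same neighbours and are not independent of the choice. NMPs lie in the tail end of the embryo once gastrulation is under way and feed both the spinal cord and the paraxial mesoderm of the trunk and tail. They are known for expressing Sox2, a neural factor, together with T (Brachyury), a mesodermal one, and Nkx1-2 and Cdx2 mark the same region. Eomes encodes a T-box factor that acts earlier, in the primitive streak. The table analysed here holds 1 row per cell with labels, scores and quality measures and no gene counts, so the label could not be checked against T, Sox2, Nkx1-2 or Cdx2.

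The data were 3' single-cell RNA-seq libraries (10x Genomics) from chimeras made by injecting male, tdTomato-expressing embryonic stem cells (ESC) with a loss-of-function Eomes allele into WT C57BL/6 blastocysts. Embryos of around E8.5 were pooled, 1 ESC clone to a pool, and sorted into tdTomato+ cells (Eomes-KO, 4 libraries) and tdTomato- cells of the same embryos (WT host, 4 libraries). Each clone was thus present in 1 library only, hosts were of both sexes, and no library held injected WT ESC, so loss of Eomes and ESC origin cannot be told apart. Libraries are named below by their number of retained cells, which was 602, 1153, 3346 and 3465 for Eomes-KO and 2414, 3791, 5819 and 8133 for WT host, since their names do not give the pool. Summed over cells they held 19370600 to 66414390 UMIs. Of all cells, 160 had a barcode that was found in more than 1 library, and 4 of these were NMPs. The Eomes-KO library of 602 cells held 21 NMPs, so 1 cell is 4.76% of its NMPs.

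NMPs were present in every library, at overlapping shares in both genotypes. In Eomes-KO libraries they made up 3.49%, 4.26%, 5.65% and 2.40% of epiblast-derived cells (libraries of 602, 1153, 3346 and 3465 cells; 21, 49, 189 and 83 NMPs). In WT host libraries they made up 4.01%, 5.51%, 2.17% and 2.68% (libraries of 2414, 3791, 5819 and 8133 cells; 96, 207, 112 and 214 NMPs). The highest and the lowest shares of each genotype lay close to those of the other. The means were 3.95% ± 1.37 and 3.59% ± 1.49 (SD, n = 4 each), which edgeR put at 0.15 on the log2 scale, Eomes-KO over WT host (SE 0.39, quasi-likelihood test, adjusted p = 0.71). In that test 69.7% of the 33 cell types passed an adjusted p of 0.05, and NMPs were among those that did not. Its sign turned with the scaling. TMM gave -0.21 (adjusted p = 0.72) and DESeq2 with its default ratio factors -0.94 (adjusted p = 0.076), while the median type moved by -0.14 and -0.90.

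**Figure D1:**
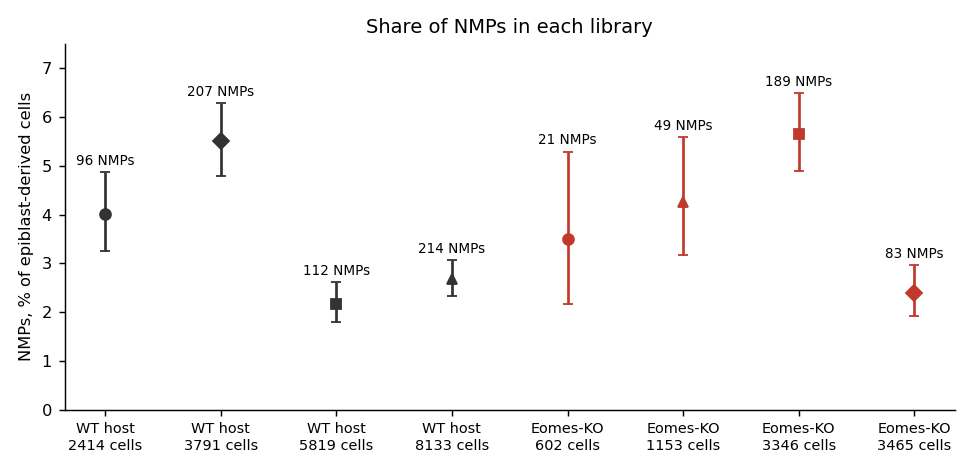
NMPs as a percentage of epiblast-derived cells (vertical axis) in each library (horizontal axis; Eomes-KO in red, WT host in dark grey), with exact binomial 95% intervals that cover counting error only. Eomes-KO libraries lie between 2.40% and 5.65% and WT host libraries between 2.17% and 5.51%.

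The extended atlas annotation divides NMPs further, and 5 of its labels were carried by at least 10 NMPs. The plain label NMPs was given to 396 of the 971 cells, mesoderm-biased NMPs to 238, spinal cord progenitors to 191, caudal epiblast to 130 and caudal mesoderm to 16. Caudal epiblast is the posterior epiblast beside the streak from which NMPs arise. The mesoderm-biased label names NMPs that lean to the mesodermal exit, and spinal cord progenitors are the neural one. The first 2 labels lay almost wholly within the NMPs studied here (396 of 399 and 238 of 241 cells). Of all spinal cord progenitors, 191 of 310 (61.6%) were NMPs in the combined annotation, with 61.7% for Eomes-KO and 61.6% for WT host, and 116 of the others were labelled spinal cord. Caudal epiblast and caudal mesoderm lay mostly outside, with 130 of 1541 and 16 of 108 cells among NMPs.

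Mesoderm-biased cells made up a larger part of the NMPs in every Eomes-KO library than in any WT host library. The shares were 47.6%, 36.7%, 30.7% and 26.5% in the Eomes-KO libraries of 602, 1153, 3346 and 3465 cells. They were 20.8%, 22.2%, 19.6% and 19.6% in the WT host libraries of 2414, 3791, 5819 and 8133 cells. The WT host libraries lay within a few percentage points of each other, whereas the Eomes-KO libraries were spread widely above them. The means were 35.4% ± 9.17 and 20.6% ± 1.23 (SD, n = 4 each), a difference of 14.8 percentage points. An exact permutation test of 4 against 4 libraries gave a two-sided p = 0.029, the smallest it allows, and an adjusted p = 0.14 over the 5 labels, so the difference did not pass after correction. Across 11 cell types with at least 10 cells in every library, 34.5% of 55 such label shares did not overlap between genotypes, against 1 of 5 in NMPs. Non-overlap of a finer label was therefore no more frequent in NMPs than in the types at large.

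Spinal cord progenitors, the neural counterpart, were a smaller part of the NMPs in 3 of 4 Eomes-KO libraries than in any WT host library. Their share was 4.08%, 8.99% and 6.02% in the Eomes-KO libraries of 1153, 3346 and 3465 cells and 23.8% in that of 602 cells, which counted 5 such cells. In the WT host libraries of 2414, 3791, 5819 and 8133 cells it was 22.9%, 35.3%, 21.4% and 20.1%. The groups overlapped through the library of 602 cells alone. The means were 10.7% ± 8.95 and 24.9% ± 6.99 (SD, n = 4 each; exact permutation test, two-sided p = 0.11, adjusted p = 0.29 over the 5 labels). Without the library of 602 cells the difference was -18.6 percentage points in place of -14.2 (exact permutation test, p = 0.057, the smallest that 3 against 4 libraries allow). Among NMPs with a doublet score under 0.25 the exact permutation p was 0.029, unadjusted, with a difference of -14.9 percentage points. That filter left 9 of the 21 NMPs in the library of 602 cells. Spinal cord progenitors had a median doublet score of 0.25, so the cut fell in the middle of this label.

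The remaining labels overlapped between genotypes. The plain label took 19.0%, 46.9%, 38.1% and 39.8% of NMPs in Eomes-KO libraries and 50.0%, 37.7%, 34.8% and 46.3% in WT host libraries, in order of library size (exact permutation p = 0.54). Caudal epiblast took 8.16% to 26.5% of NMPs in Eomes-KO and 3.86% to 23.2% in WT host libraries (exact permutation p = 0.43). Both ranges were wide, with the 5819-cell library at the top of the WT host range. Caudal mesoderm counted 8 NMPs in each genotype, or 0% to 4.08% and 0.893% to 1.87% of NMPs (exact permutation p = 0.46). The library of 602 cells had none among its 21 NMPs, which allows a share of up to 14.3% by a floor of 3 cells.

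The balance of the mesodermal against the neural label was also taken as a ratio, chosen after the shares had been seen. The log2 ratio of mesoderm-biased NMPs to NMPs labelled spinal cord progenitors, with 0.5 cells added to each, was 0.93, 2.89, 1.74 and 2.03 in the Eomes-KO libraries of 602, 1153, 3346 and 3465 cells. In the WT host libraries of 2414, 3791, 5819 and 8133 cells it was -0.13, -0.66, -0.12 and -0.03. Every Eomes-KO library thus held more mesoderm-biased than spinal cord cells among its NMPs, and every WT host library held fewer, 3 of them by a narrow margin. The difference was 2.14 on the log2 scale (exact permutation p = 0.029, the smallest possible). It is no independent support, since it rests on the same cells as the shares.

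**Figure D2:**
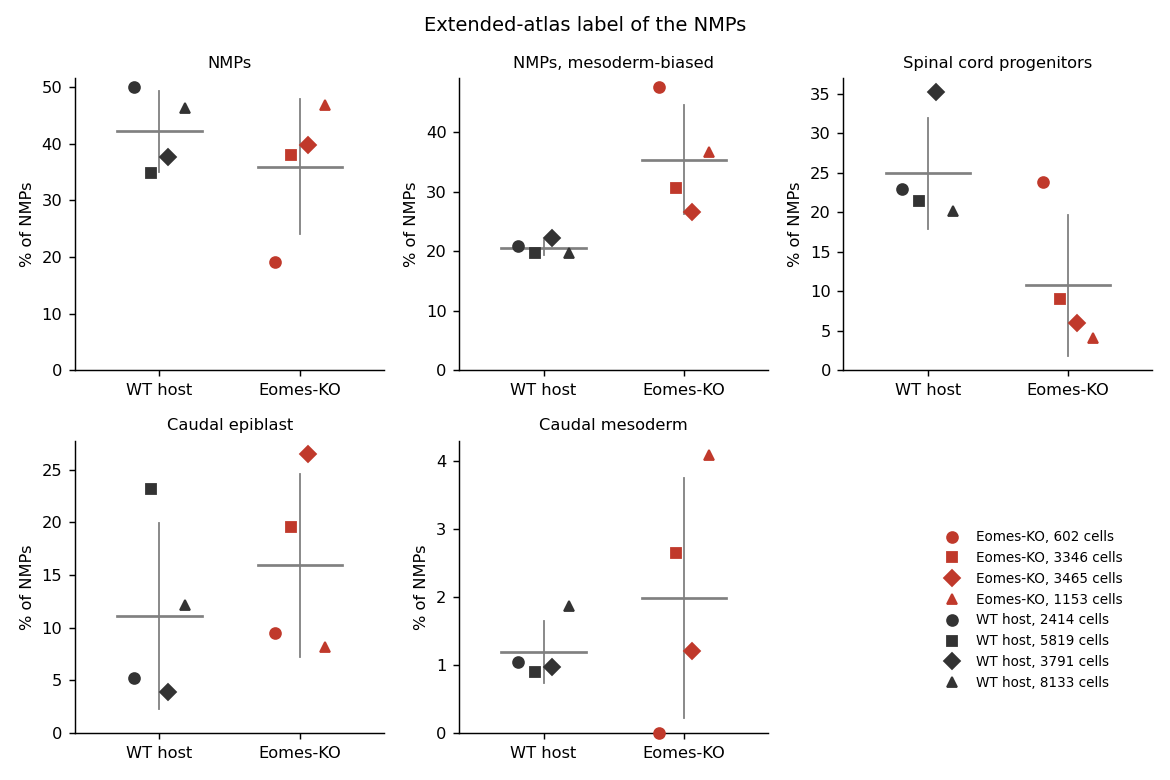
Percentage of NMPs (vertical axis of each panel) that carried each of 5 extended-atlas labels, for Eomes-KO libraries (red) and WT host libraries (dark grey). Points are libraries, marker shapes pair none of them, and bars are the mean and SD of 4. Mesoderm-biased NMPs do not overlap between genotypes, at 26.5% to 47.6% in Eomes-KO and 19.6% to 22.2% in WT host, and spinal cord progenitors overlap through the Eomes-KO library of 602 cells.

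Taken as shares of all epiblast-derived cells, and over the whole extended annotation, the labels were compared with edgeR. Caudal epiblast, which lay mostly outside the NMPs, rose by 1.73 on the log2 scale in Eomes-KO cells (SE 0.43, adjusted p = 0.0014, 877 Eomes-KO and 664 WT host cells). It passed under every scaling tried (1.57 to 2.84), with at least 10000 UMIs (1.75) and without each library in turn (1.45 to 2.22). The extended label caudal mesoderm stood at 0.88 (SE 0.52, adjusted p = 0.13). Spinal cord progenitors fell by 1.20 on the log2 scale in Eomes-KO cells (SE 0.49, edgeR over 69 labels, adjusted p = 0.034), a direction that turned to 0.037 under DESeq2's poscounts factors (adjusted p = 0.94). The label counted 47 Eomes-KO and 263 WT host cells in all, NMPs or not. Of the 69 labels 73.9% passed this test, so a pass was the common outcome. The call was lost under TMM scaling (-0.60, adjusted p = 0.24) and with at least 10000 UMIs per cell (-1.22, adjusted p = 0.0995). It was also lost without the Eomes-KO library of 3465 cells (-0.86, adjusted p = 0.12), that of 1153 cells (-1.19, adjusted p = 0.052), the 3791-cell WT host library (-0.78, adjusted p = 0.12) or the 8133-cell one (-1.29, adjusted p = 0.056). Mesoderm-biased NMPs, with 109 Eomes-KO and 132 WT host cells, stood at 0.86 (SE 0.45, adjusted p = 0.083). They passed under TMM scaling (1.43, adjusted p = 0.0072) and under DESeq2's poscounts factors (2.08, adjusted p = 3.6e-05). They also passed without the Eomes-KO library of 3465 cells (1.15, adjusted p = 0.026) and without the 3791-cell WT host library (1.22, adjusted p = 0.021). Mesoderm-biased NMPs did not pass with at least 10000 UMIs per cell (0.62, edgeR adjusted p = 0.41) or under DESeq2's ratio factors (0.84, adjusted p = 0.084). Nor did they pass without any other single library. The plain NMPs label stood at -0.01 (SE 0.44, adjusted p = 0.98) and passed under poscounts alone (1.23, adjusted p = 0.021). TMM moved the median of the 69 labels by 0.67 and poscounts by 1.29. Relative to the TMM shift, mesoderm-biased NMPs stood at 0.76, spinal cord progenitors at -1.27 and plain NMPs at -0.09.

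Each NMP also had the atlas stage of its nearest atlas cells, which ran from E8.0 to E8.5. E8.25 was the commonest stage in every Eomes-KO library but 1, where it took 75.5%, 68.8% and 74.7% of NMPs (1153, 3346 and 3465 cells). The exception was the library of 602 cells, with 14.3% at E8.25 and 81.0% (17 of 21) at E8.5. E8.5 took 22.4%, 24.9% and 16.9% in the other Eomes-KO libraries. In WT host libraries of 2414, 3791, 5819 and 8133 cells E8.5 took 22.9%, 51.2%, 42.0% and 45.8%. The genotypes therefore overlapped at both ends (36.3% ± 29.97 against 40.5% ± 12.3, SD, n = 4 each; exact permutation p = 0.94). E8.5 shares did not overlap between genotypes in 18.2% of the 11 cell types, spinal cord and surface ectoderm, and neither did mean stages (18.2%), and NMPs were not among them. E8.0 took 2.04% to 8.43% of NMPs in Eomes-KO and 0.467% to 4.46% in WT host libraries (exact permutation p = 0.057, adjusted p = 0.23 over 4 stage measures). All of those 29 NMPs carried the caudal epiblast label except 2.

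The mean atlas stage of NMPs was E8.33 ± 0.077 in Eomes-KO and E8.35 ± 0.031 in WT host libraries (SD in days, n = 4 each; exact permutation p = 0.66). The overlap came from the library of 602 cells, at E8.440, while the other 3 Eomes-KO libraries, at E8.301, E8.296 and E8.271 (1153, 3346 and 3465 cells), lay below every WT host library (E8.305 to E8.377). Without the library of 602 cells the difference was -0.058 days in place of -0.020 (exact permutation p = 0.057, the smallest that 3 against 4 libraries allow). NMPs mapped later than the other epiblast-derived cells of their library in all 8 libraries, by 0.094 to 0.29 days in Eomes-KO and 0.079 to 0.17 days in WT host. Those other cells averaged E8.15 in Eomes-KO and E8.22 in WT host libraries, a difference of -0.069 days (exact permutation p = 0.086, unadjusted). Relative to them, NMPs mapped on average 0.049 days later in Eomes-KO than in WT host libraries (exact permutation p = 0.40, unadjusted). In the library of 602 cells, 19.0% of the other cells were at E8.5, against 81.0% of its NMPs, so its late stage was not shared by the library as a whole. Set against spinal cord cells of the same library, a comparison chosen after the data were seen, NMPs mapped 0.26, 0.074, 0.089 and 0.12 days later in Eomes-KO libraries of 602, 1153, 3346 and 3465 cells. In WT host libraries of 2414, 3791, 5819 and 8133 cells the gap was -0.0025, 0.024, 0.049 and 0.011 days. The gaps did not overlap (exact permutation p = 0.029, adjusted p = 0.14 over 5 neighbouring types), and those to caudal epiblast, caudal mesoderm, somitic mesoderm and caudal neurectoderm did (exact permutation p = 0.34 to 0.71). Spinal cord itself was among the types whose stage differed.

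**Figure D3:**
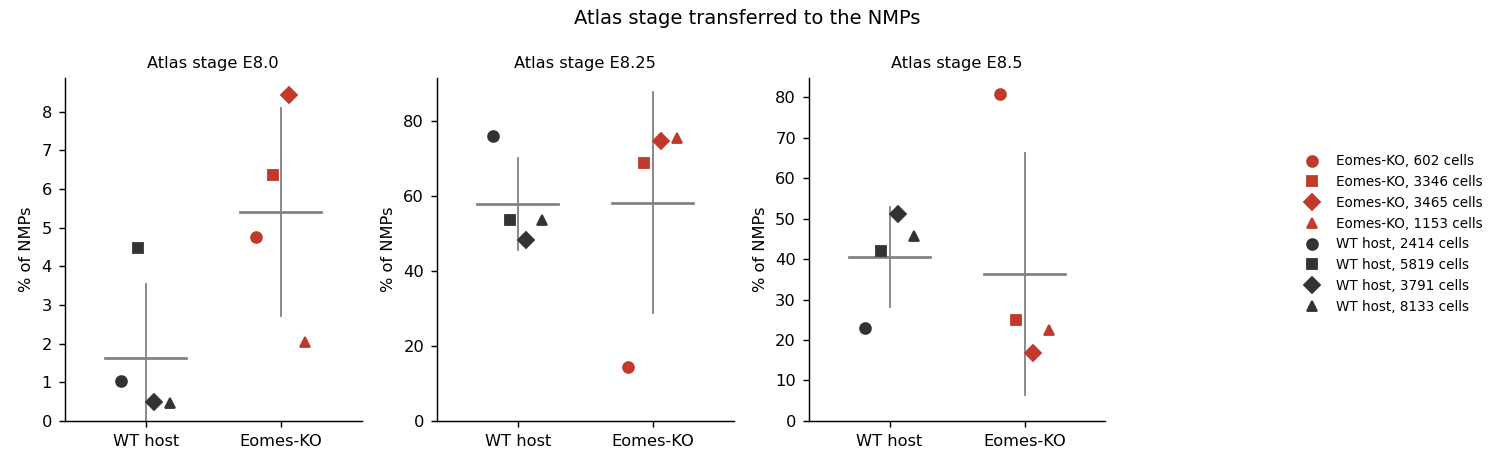
Percentage of NMPs (vertical axis of each panel) at atlas stages E8.0, E8.25 and E8.5 in Eomes-KO libraries (red) and WT host libraries (dark grey). Points are libraries and bars show mean and SD (n = 4), cut off at 0. The Eomes-KO library of 602 cells stands apart at 14.3% for E8.25 and 81.0% for E8.5.

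Stage and finer label moved together, and both were transferred from the same nearest atlas cells. None of the 130 NMPs labelled caudal epiblast was at E8.5. The combined class caudal epiblast, outside the NMPs, likewise held 0% at E8.5 in every library. Of the cells pooled over libraries, plain NMPs were at E8.5 in 19.7% of Eomes-KO and 34.1% of WT host NMPs with that label. For mesoderm-biased NMPs the values were 38.0% and 66.9%, and for spinal cord progenitors 69.0% (20 of 29 cells) and 56.8%. Per library, these shares overlapped between genotypes. Mesoderm-biased NMPs ranged from 22.7% to 90% in Eomes-KO and from 35% to 78.6% in WT host libraries. Spinal cord progenitors ranged from 50% to 100%, on 2 to 17 cells per Eomes-KO library, and from 22.7% to 66.7%. In pooled cells the latest of these labels was spinal cord progenitors in Eomes-KO and mesoderm-biased NMPs in WT host. That difference was not tested. The finer labels were therefore compared within a stage, a choice made after the data were seen. Among NMPs at E8.25, mesoderm-biased cells averaged 30.4% ± 2.91 in Eomes-KO and 12.8% ± 4.19 in WT host libraries, and spinal cord progenitors 2.64% ± 1.93 and 19.9% ± 8.24 (SD, n = 4 each). Neither share overlapped between genotypes (exact permutation p = 0.029 each, unadjusted). The library of 602 cells entered there with 3 NMPs, 1 of them mesoderm-biased and none a spinal cord progenitor. Label shares within a stage were compared in NMPs only. Without a split by stage, 34.5% of 55 label shares over the 11 cell types did not overlap. Among NMPs at E8.5, mesoderm-biased cells averaged 47.0% ± 8.66 and 31.9% ± 1.42, again without overlap (exact permutation p = 0.029, unadjusted). The Eomes-KO libraries of 602, 1153 and 3465 cells entered there with 17, 11 and 14 NMPs. The lowest Eomes-KO share was 35.7% (5 of 14 cells), against at most 33.7% in WT host libraries. Spinal cord progenitors overlapped at 20.8% ± 8.53 and 31.5% ± 7.62 (exact permutation p = 0.14). Comparisons within a stage reuse the cells of the unsplit shares.

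The label score gives how many of a cell's 15 nearest atlas neighbours share the transferred label, as a fraction. The NMP label had a median score of 1, 0.933, 0.867 and 0.8 in the Eomes-KO libraries of 602, 1153, 3346 and 3465 cells. It was 1, 1, 0.967 and 0.933 in the WT host libraries of 2414, 3791, 5819 and 8133 cells. The highest scores occurred in both genotypes, and the lowest 2 in Eomes-KO (0.9 ± 0.086 against 0.975 ± 0.032, SD, n = 4 each; exact permutation p = 0.26). These scores did not overlap between genotypes in 9.09% of the 11 cell types. All 15 neighbours agreed on NMP for 129 of 342 Eomes-KO cells (37.7%) and 345 of 629 WT host cells (54.8%). Per library the shares were 27.7% to 61.9% and 40.2% to 69.6%, which overlapped (exact permutation p = 0.23).

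The extended annotation divides the NMP class further, which by itself can lower a score. The finer label scored lower than the NMP label in both genotypes. Its median score was 0.667, 0.6, 0.6 and 0.533 in the Eomes-KO libraries, in order of size, and 0.6 in every WT host library (exact permutation p = 1). The stage score had medians of 0.667 to 0.733 in Eomes-KO and 0.667 to 0.8 in WT host libraries (exact permutation p = 1). Neither separated the genotypes in any of the 11 types (0% each). By label, the NMP score was lowest in caudal epiblast cells (median 0.567) and caudal mesoderm cells (0.533) and 1 for the other 3 labels. With finer labels kept only at a score of at least 0.5, mesoderm-biased cells were 17.0 percentage points more frequent in Eomes-KO (exact permutation p = 0.029) and spinal cord progenitors differed by -16.5 points (exact permutation p = 0.086).

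Eomes-KO NMPs held more UMIs than any WT host library's NMPs in 3 of 4 libraries. Their median UMI count was 30390, 18703, 17859 and 8406 in the libraries of 602, 1153, 3346 and 3465 cells, against 8595, 10364, 10652 and 5331 in the WT host libraries of 2414, 3791, 5819 and 8133 cells. The first 3 lay above every WT host library and the last among them (exact permutation p = 0.11, adjusted p = 0.29 over 5 quality measures). NMPs followed their library in this, at 0.932 to 1.05 times the median of its other epiblast-derived cells in Eomes-KO and 0.962 to 1.04 times in WT host. Median genes per NMP were 2770 to 5073 and 2107 to 3194 (exact permutation p = 0.086, adjusted p = 0.29). Mitochondrial genes took a median 1.42% to 1.74% and 1.23% to 1.49% of UMIs and ribosomal protein genes 26.2% to 27.3% and 25.7% to 27.4% (exact permutation p = 0.23 and 0.31). Median doublet scores were 0.15 to 0.28 and 0.21 to 0.23 (exact permutation p = 0.89). UMIs, genes, mitochondrial percent and doublet scores separated the genotypes in none of the 11 types (0%), and ribosomal percent in 18.2%.

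Depth moved with the finer label. Within a library, spinal cord progenitors had a higher median UMI count than the other NMPs in 8 of 8 libraries, caudal epiblast cells in 7 of 8 and mesoderm-biased cells in 6 of 8, while plain NMPs were lower in 8 of 8. Among NMPs with at least 10000 UMIs, which left 3 cells in the WT host library of 8133 cells, mesoderm-biased cells were 18.9 percentage points more frequent in Eomes-KO (exact permutation p = 0.029) and spinal cord progenitors differed by -15.1 points (exact permutation p = 0.26).

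**Figure D4:**
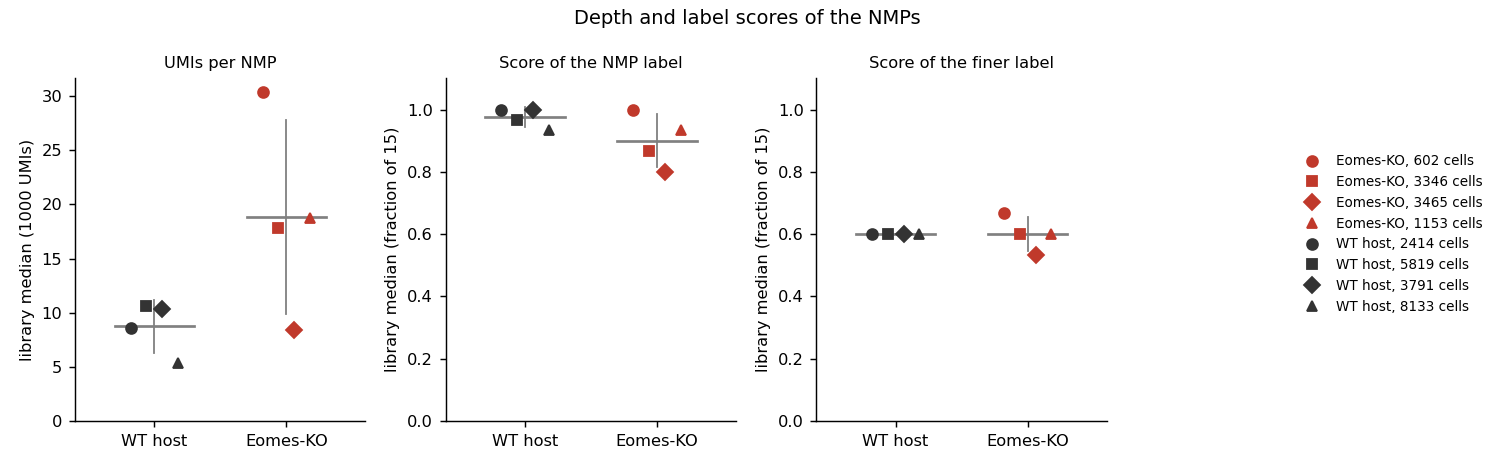
Library medians over NMPs of UMIs per cell (in units of 1000), of the score of the NMP label and of the score of the finer label (fractions of 15 nearest atlas cells), for Eomes-KO libraries (red) and WT host libraries (dark grey). Points are libraries and bars the mean and SD of 4. Scores of the finer label lie at 0.533 to 0.667, below those of the NMP label at 0.8 to 1.

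NMPs were also set against 5 posterior cell types of the same library, as a log2 ratio of cell numbers with 0.5 added to each, which does not depend on lineages lost elsewhere. Against caudal mesoderm, the mesoderm of the tail end, the ratio was -0.30, -0.65, -0.31 and -0.43 in the Eomes-KO libraries of 602, 1153, 3346 and 3465 cells. It was 2.95, 2.86, 0.31 and 1.69 in the WT host libraries of 2414, 3791, 5819 and 8133 cells. NMPs were thus fewer than caudal mesoderm cells in every Eomes-KO library and more in every WT host library. The mean ratio in Eomes-KO was 0.193 times that in WT host, a difference of -2.38 on the log2 scale (exact permutation p = 0.029, adjusted p = 0.14 over 5 types). As shares of epiblast-derived cells, NMPs stood at 0.15 on the log2 scale (edgeR, adjusted p = 0.71). Caudal mesoderm of the same annotation rose by 2.45 in Eomes-KO (SE 0.44, edgeR, adjusted p = 0.00013), in a test that 69.7% of 33 types passed. Caudal mesoderm in the combined annotation held 449 cells in Eomes-KO and 196 in WT host libraries and is another class than the extended label of that name. Of its 645 cells, 483 had the extended label caudal epiblast and 71 caudal mesoderm. The latter averaged 5.43% of the class in Eomes-KO and 25.7% in WT host libraries, without overlap (exact permutation p = 0.029, unadjusted). The part of this in the ratio was not tested. Over all 32 other types, 53.1% of such ratios to NMPs did not overlap, against 1 of these 5.

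Ratios to the other 4 types overlapped between genotypes. For caudal epiblast the difference was -1.52 on the log2 scale (exact permutation p = 0.11), with the WT host libraries ranging from -0.91 to 3.21. It was -0.75 without the 3791-cell WT host library and -2.12 without the 5819-cell one. For spinal cord it was 0.62 (exact permutation p = 0.34), and for somitic mesoderm it was -0.22 (exact permutation p = 0.54). Caudal neurectoderm, the posterior neural plate, was scarce, with 99 Eomes-KO and 117 WT host cells, and gave -1.23 (exact permutation p = 0.34). Leaving out each library in turn moved these differences to 0.18 to 0.89 for spinal cord, -0.45 to -0.0056 for somitic mesoderm and -1.85 to -0.47 for caudal neurectoderm, with no change of sign. NMPs and somitic mesoderm were close in number in both genotypes, with mean log2 ratios of 0.03 ± 0.51 and 0.25 ± 0.49 (SD, n = 4 each).

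**Figure D5:**
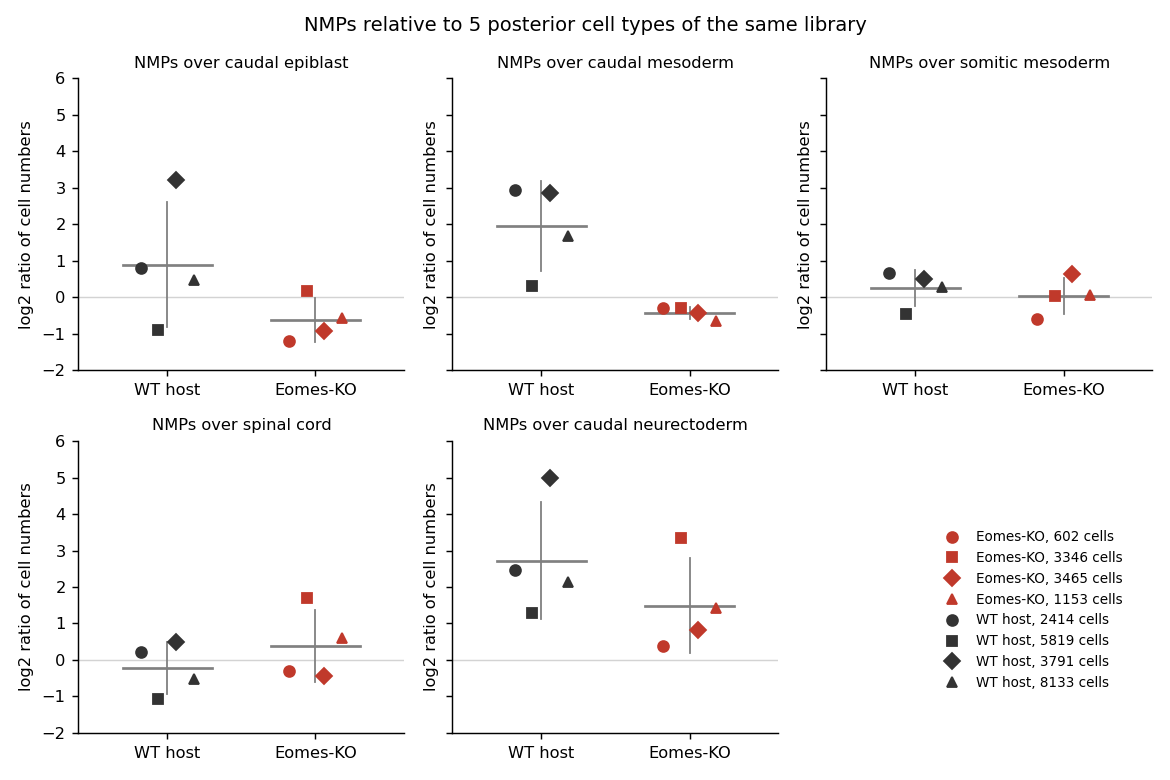
Log2 ratio of the number of NMPs to that of each of 5 posterior cell types in the same library (vertical axis of each panel; the line at 0 marks equal numbers), for Eomes-KO libraries (red) and WT host libraries (dark grey). Points are libraries and bars the mean and SD of 4. Against caudal mesoderm all Eomes-KO libraries lie between -0.65 and -0.30 and all WT host libraries between 0.31 and 2.95.

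The 971 NMPs had 707 different cells as their nearest atlas cell, and no atlas cell served for more than 7 NMPs. Eomes-KO NMPs mapped to 267 of these and WT host NMPs to 521. The 81 that served for both genotypes were 30.3% of the Eomes-KO set and 15.5% of the WT host set. Of the 707 atlas cells, 523 served for 1 NMP only and so could not be shared. Sharing between libraries of the same genotype was not examined, so these shares have no baseline.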

How the data were processed

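Reads were aligned and counted by the authors in Cell Ranger 6.0.1 against mm10 plus the tdTomato gene (study methods and submitters' processing notes). The deposited UMI and gene counts are sums for each cell and are not normalized. The authors filtered cells by these and by the deposited mitochondrial and ribosomal percent of UMIs, and removed cells whose deposited doublet score was above 0.5. The authors mapped each library to E7.5 to E8.5 atlas cells; deposited label scores are fractions of the 15 nearest. The study states more retained cells than the table holds. Umap columns were not used.

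Cells were counted per library and label. Shares took epiblast-derived cells (all but visceral, parietal and ExE endoderm and ExE ectoderm) as the denominator and were tested with edgeR 4.0.16 (glmQLFTest, R 4.3.3; labels with at least 10 cells; genotype as the term; Benjamini-Hochberg at 0.05). Other values, 1 per library, were compared by exact two-sided permutation of 4 against 4 libraries (70 arrangements). Both were tested on simulated data. Labels carried by at least 10 NMPs, all stages, scores and quality measures, and 5 neighbouring types are named. Members and lists were chosen with earlier results of these data known. Alternatives were TMM, DESeq2 1.42.0 and limma 3.58.1 (0.5 cells added), denominators, filters, and leaving out each library. Cells are not replicates, and intervals (Clopper-Pearson, 95%) cover counting error only.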

Additional observations from a re-analysis of the deposited data

Results flagged for a closer look

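Of 46 groups of 4 libraries examined, 4 held a library far from the other 3 by Dixon's criterion, where chance gives about 1 in 20 groups, or 2.3 here. In the Eomes-KO library of 602 cells, 14.3% of the 21 NMPs were at atlas stage E8.25 (68.8% to 75.5% in the other 3) and 81.0% were at E8.5 (16.9% to 24.9% in the other 3). These 2 values share their cells. In the WT host library of 5819 cells, 4.46% of NMPs were at E8.0 (0.467% to 1.04% in the other 3). In the WT host library of 8133 cells, 1.87% of NMPs carried the caudal mesoderm label (0.893% to 1.04% in the other 3), which is 4 cells.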

How the results depend on the processing

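No paired analysis was possible because the library names do not give the embryo pool. Of 88 alternatives other than leaving out a library, 71 kept their direction and side of the threshold. The NMP share (log2 fold change 0.15) passed under none and ranged from -0.94 (DESeq2 ratio) to 0.65 (poscounts). TMM gave -0.21, and -0.17 with original labels. The original label NMP covered the same 971 cells, so fits with original labels differ only through the other types. Relative to the median shift of each scaling the NMP share stood at -0.07 (TMM), -0.04 (ratio) and 0.04 (poscounts, shift 0.61). In the extended annotation, plain NMPs had 0.59 (TMM), 1.23 (poscounts, adjusted p = 0.021) and 0.049 (at least 10000 UMIs), mesoderm-biased NMPs 1.43 (TMM) and 2.08 (poscounts), spinal cord progenitors -0.60 (TMM), 0.037 (poscounts) and -1.22 (10000 UMIs), and caudal mesoderm passed under TMM, poscounts and 10000 UMIs (1.48, 2.17 and 1.86). Relative to the poscounts shift of 1.29, mesoderm-biased NMPs stood at 0.80 and spinal cord progenitors at -1.25. Within NMPs, spinal cord progenitors passed before correction with doublet scores under 0.25 (-14.9 points) and at E8.25 (-17.3 points), and the log2 ratio of plain to mesoderm-biased NMPs (-1.01, exact permutation p = 0.029) was -0.98 (p = 0.40) with at least 10000 UMIs. The causes were not tested. Extended fits under DESeq2 or 10000 UMIs, and comparisons within a stage, were chosen after seeing the data.

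Leaving out each library in turn gave log2 fold changes of -0.099 to 0.43 for the NMP share (-0.098 to 0.43 with original labels), -0.30 to 0.19 for plain NMPs, 0.66 to 1.22 for mesoderm-biased NMPs and -1.52 to -0.78 for spinal cord progenitors. Mesoderm-biased cells stayed 10.7 to 17.8 percentage points higher within NMPs and the log2 ratio of NMPs to caudal mesoderm differed by -2.92 to -2.04. The mean stage differed by -0.058 to -0.0012 days. With 3 against 4 libraries the exact p cannot go below 0.057, so no such test could pass. Directions turned for the shares at E8.25 (-5.33 to 15.1 points) and E8.5 (-19.1 to 2.29 points), the doublet score (-0.0033 to 0.04) and the stage score (-0.033 to 0.011), none of which passed. The number of NMPs per library, 21 at the lowest, limits what can be said of labels with few cells.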
